A study of Triticum aestivum with 9 samples.

Results

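The AGPL1 triad of bread wheat is the set of 3 genes, on chromosomes 1A, 1B and 1D, that encode the large subunit of endosperm ADP-glucose pyrophosphorylase. The members were chosen by identifier: every transcript that belongs to TraesCS1A02G419600, TraesCS1B02G449700 or TraesCS1D02G427400 was taken, whatever its level. This gave 3 of 107891 genes and 6 of 133744 transcripts, 2 transcripts for each gene. The name AGPL1 and the assignment to the 3 chromosomes came with this choice of genes, because the tables give identifiers and no gene names.

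RNA was sequenced from filling grains of Chinese Spring, a bread wheat cultivar whose genome holds A, B and D subgenomes with a copy of most genes in each. Plants were moved to growth chambers 12 days after flowering, kept at 20 °C for 3 days, and then exposed for 1 h in the light to 30 °C (mild heat, 3 plants), to 40 °C (severe heat, 3 plants) or to a continued 20 °C (control, 3 plants). All 9 plants shared the cultivar, the adaptation and the time of collection. By the paper's methods the heated plants were moved to preheated incubators and the controls were not. Temperature therefore cannot be told apart from the move or the incubator. Whole grains were used, so endosperm, embryo and seed coats were not separated, and the tissue was not checked against markers because no names were paired with the identifiers here.

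ADP-glucose pyrophosphorylase makes ADP-glucose from glucose 1-phosphate and ATP, and this is the step that commits carbon to starch. The enzyme is built from large and small subunits. In cereal endosperm most of its activity is in the cytosol, and the product is carried into the amyloplast, where starch synthases use it. The enzyme of maize endosperm is known to lose activity on heating, and variants of its large subunit with better heat stability have been selected.

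AGPL1 was among the abundant genes of these grains. Its level is given as FPKM, fragments scaled to transcript length and to the library total, which allows copies of different length to be compared. By FPKM summed over transcripts, TraesCS1D02G427400 ranked between 136 and 251 among all genes over the 9 samples, TraesCS1B02G449700 between 140 and 243, and TraesCS1A02G419600 between 173 and 408. The 6 transcripts together received between 35772 and 71654 expected counts per library, the RSEM estimate of the number of fragments from a transcript, out of totals between 15778561 and 19497182. Counting error at this depth is at most 0.529% of the AGPL1 count, whereas the summed FPKM differed between plants of a group with a coefficient of variation of 15.2% in the controls, 6.27% under mild heat and 18.9% under severe heat.

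The summed level of the triad was lowest at 30 °C. It was 2249, 1700 and 1807 FPKM in the 3 plants at 20 °C. It was 1255, 1107 and 1195 FPKM in the 3 plants at 30 °C. It was 1183, 1340 and 1702 FPKM in the 3 plants at 40 °C. Every plant at 30 °C lay below every plant at 20 °C, while the highest plant at 40 °C (replicate 3) was level with the lowest control. The order of the means was 1919 ± 291 FPKM at 20 °C, 1409 ± 266 FPKM at 40 °C and 1186 ± 74.3 FPKM at 30 °C (SD, n = 3 each). The neighbours 40 and 20 °C, and likewise 40 and 30 °C, overlapped.

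In ratios of these means, the triad stood at 0.618 of the control level at 30 °C and at 0.734 of it at 40 °C. Exact two-sided permutation tests of the difference in mean gave p = 0.1 for 30 against 20 °C, p = 0.2 for 40 against 20 °C and p = 0.3 for 40 against 30 °C, and 0.1 is the smallest p that 3 plants against 3 can reach. A test for a level that moves in 1 direction with temperature (exact Jonckheere-Terpstra permutation test over 9 plants) gave p = 0.277 and an adjusted p of 0.517 over 4 trends. An exact permutation test for any difference among the 3 temperatures, chosen after the order had been seen, gave p = 0.0214 (adjusted p = 0.0357 over 5 such tests). With TPM, a further length-scaled measure, in place of FPKM, the same exact test gave p = 0.0143. With expected counts scaled by TMM factors the same exact test gave p = 0.0893, and on FPKM it stayed under 0.05 in 5 of the 9 fits that left out 1 plant. In grain RNA of this kind, fewer endosperm cells and less AGPL1 RNA per cell cannot be told apart.

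**Figure D1:**
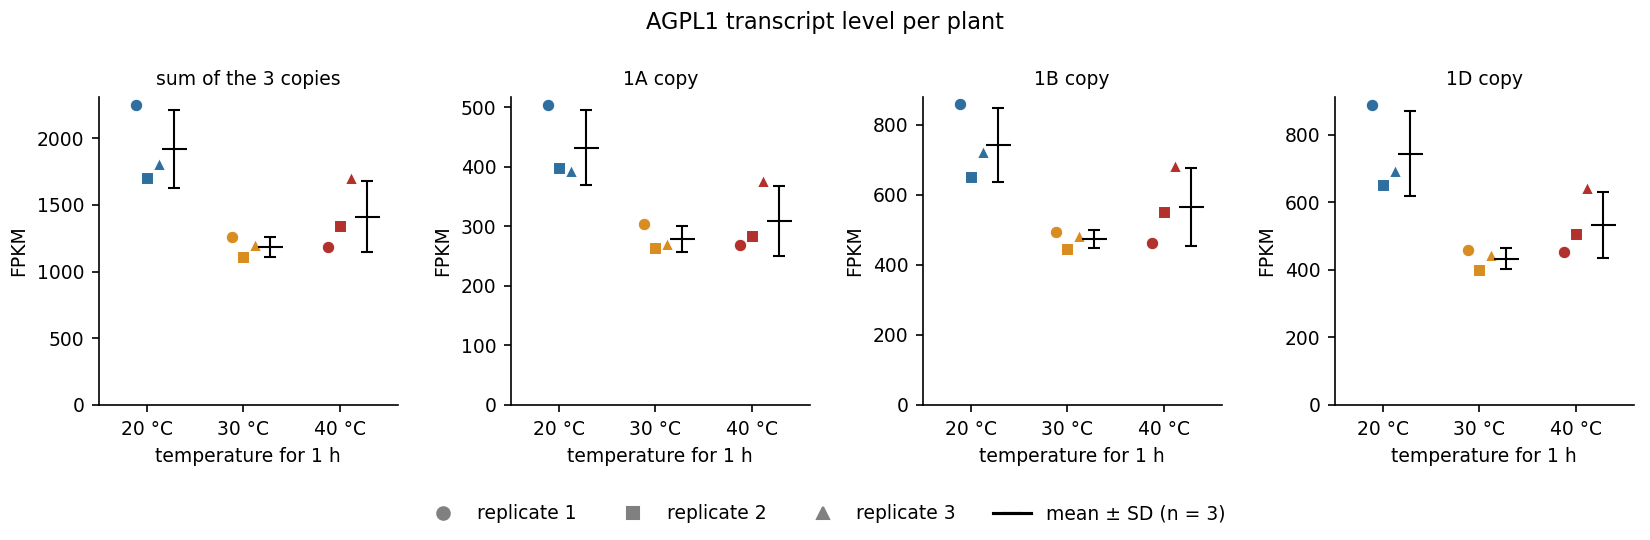
FPKM of the AGPL1 triad (summed over its 6 transcripts) and of each copy, by temperature. Each point is 1 plant, with the marker giving the replicate number, and the bar beside each group is the mean ± SD of 3 plants. In each of the 4 panels the 3 plants at 30 °C lie below the 3 plants at 20 °C, and among the plants at 40 °C replicate 3 is highest.

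The 3 copies had the same order of temperatures by their means, although for the 1A copy the order of the 2 heat treatments rested on replicate 3 at 40 °C, without which the mean was 275.9 FPKM at 40 °C, against 279.5 FPKM at 30 °C. TraesCS1A02G419600, the 1A copy, had 504, 398 and 394 FPKM at 20 °C, 304, 264 and 270 FPKM at 30 °C, and 268, 284 and 376 FPKM at 40 °C. TraesCS1B02G449700, the 1B copy, had 857, 649 and 722 FPKM at 20 °C, 493, 444 and 482 FPKM at 30 °C, and 463, 550 and 683 FPKM at 40 °C. TraesCS1D02G427400, the 1D copy, had 887, 653 and 692 FPKM at 20 °C, 458, 399 and 443 FPKM at 30 °C, and 452, 507 and 643 FPKM at 40 °C. For each copy the plants at 30 °C lay below all controls, and at 40 °C the highest plant was again replicate 3. At 40 °C the 1A and 1D copies lay below the controls in every plant by FPKM, while the 1B copy overlapped the controls. By expected counts all 3 copies overlapped the controls at 40 °C. Of all transcripts with a mean FPKM above 1 in either group, 14.3% lay below all controls by FPKM at 30 °C, and 26.0% at 40 °C. Across the 9 plants the Pearson correlation of log2(FPKM + 1) was 0.993 between the 1D and 1B copies, 0.977 between 1D and 1A, and 0.968 between 1B and 1A, as a description only, since the copies were read from the same libraries.

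Reads from such similar genes can fit more than 1 copy, and RSEM divides them. The expected counts of the 6 AGPL1 transcripts summed to a whole number, within 0.01, in 9 of 9 libraries. The sum of a single copy was within 0.01 of a whole number in 0 of 9 libraries for each of the 3 copies, and lay between 0.04 and 0.45 away. Fragments had thus been divided among the 3 copies, while the summed count of the triad was not altered by this division. The counts and FPKM of a single copy or transcript rest on RSEM's allocation. The summed FPKM rests on it in part, because each copy's fragments are divided by that copy's own length, and the summed count does not.

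Mild heat was compared with the control first. The test was edgeR's quasi-likelihood test on all transcripts whose FPKM averaged more than 1 in at least 1 of the 2 groups, and a transcript was called differentially expressed, as a DET, at an FDR under 0.05 (Benjamini-Hochberg over all transcripts tested) and a fold change above 2. Of the 6 AGPL1 transcripts, 5 entered the test at 30 against 20 °C and 0 were DETs, where 3.88% of the 45956 transcripts tested were DETs in either direction. The unadjusted edgeR p-value was under 0.05 for 4 of the 5. The share of all transcripts with such a p-value was not computed, in this or the other comparisons. DESeq2 also gave 0 DETs among the 4 for which it returned a p-value, against 1431 higher and 1034 lower DETs over all transcripts tested. All 4 had a DESeq2 FDR under 0.05 (5.13e-05 to 0.00150), where 1977 of all 45956 transcripts tested fell at that FDR. At an edgeR FDR under 0.05 with no limit on the fold change, 2 of the 5 fell, against 2.28% of all transcripts tested. In FPKM, 4 of the 5 were lower in every plant at 30 °C than in every plant at 20 °C, as were 14.3% of all transcripts tested.

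The 2 transcripts that fell at this edgeR FDR were TraesCS1D02G427400.1 and TraesCS1B02G449700.2. TraesCS1D02G427400.1 is 1945 bases long and carried 99.3% or more of the 1D copy's FPKM in every library. It had 458, 399 and 442 FPKM at 30 °C, against 881, 653 and 692 FPKM at 20 °C, and fell by 0.81 on the log2 scale (approximate SE 0.17, edgeR FDR = 0.0387). TraesCS1B02G449700.2, of 2183 bases, had 266, 239 and 264 FPKM at 30 °C, against 469, 357 and 397 FPKM at 20 °C, and fell by 0.70 on the log2 scale (approximate SE 0.16, edgeR FDR = 0.0437). Both changes were under 2-fold, and neither group overlapped the other.

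TraesCS1B02G449700.1, of 2227 bases, had 227, 205 and 218 FPKM at 30 °C, against 388, 293 and 324 FPKM at 20 °C. Its log2 fold change was -0.66 (approximate SE 0.16, edgeR FDR = 0.0520), just outside the threshold. TraesCS1A02G419600.1, of 2243 bases and 99.79% or more of the 1A copy, had a log2 fold change of -0.66 (approximate SE 0.17, edgeR FDR = 0.0622). For both transcripts the groups were separate, so that the 4 abundant transcripts were alike in direction and close in size, and those on either side of the FDR threshold were not tested against each other. With counts summed over the transcripts of each gene, all 3 copies passed, with an edgeR FDR of 0.0329 for TraesCS1A02G419600, 0.0266 for TraesCS1B02G449700 and 0.0168 for TraesCS1D02G427400. In that fit 2333 of the 43314 genes tested fell at an FDR under 0.05, a larger part than of the transcripts. With the 6 transcripts summed to 1 feature, which is free of the allocation among copies, the log2 fold change was -0.72 (approximate SE 0.17, edgeR FDR = 0.0515). The median log2 fold change of the 5 AGPL1 transcripts tested was -0.70, while that of all transcripts tested was 0.00. The part of all transcripts tested with a lower log2 fold change was 8.72 to 12.1% for the 4 abundant AGPL1 transcripts. For the summed triad it was 10.5%.

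The call at 30 °C was not stable. With any 1 of the 3 control plants left out, or replicate 2 or 3 at 30 °C, 0 AGPL1 transcripts had an FDR under 0.05. With replicate 1 at 30 °C left out there were 4. The count over all transcripts tested moved too. Those that fell at this FDR numbered 1049 with all plants, 2146 without replicate 1 at 30 °C, and 196 to 398 in the other fits that left out a plant. The composition of the libraries moved in the same direction: the 100 most abundant transcripts took 35.3, 33.0 and 31.0% of all expected counts at 30 °C, against 41.6, 39.2 and 37.0% at 20 °C. With this share as a covariate, chosen after the data had been seen, 0 of 5 AGPL1 transcripts passed. Of all 45956 transcripts tested, only 18 fell at an FDR under 0.05 in that fit. The log2 fold change of the summed triad with the covariate was -0.28 (edgeR FDR = 0.800). The 2 groups did not overlap in the share of the 100 most abundant transcripts, so that temperature and library composition cannot be told apart at 30 °C.

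**Figure D2:**
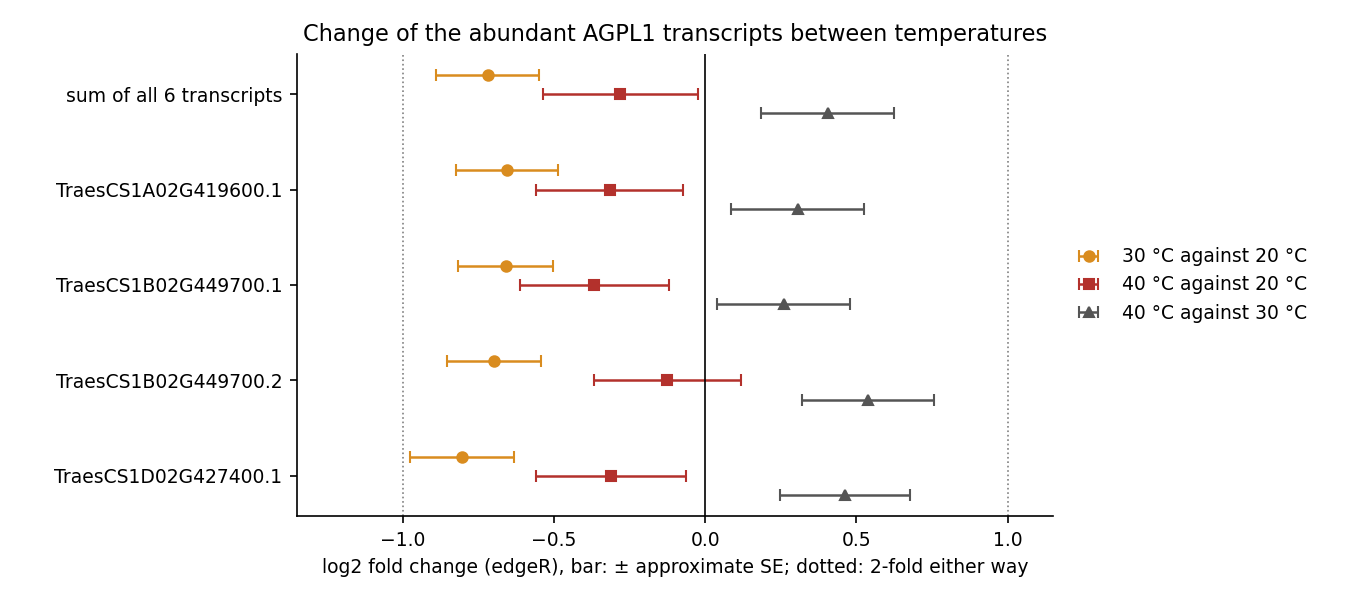
Log2 fold change of the summed triad and of the 4 abundant AGPL1 transcripts in the 3 comparisons, from edgeR. Bars are ± the approximate SE, and the dotted lines mark a 2-fold change either way. The values for 30 against 20 °C lie between -0.81 and -0.66, those for 40 against 20 °C between -0.37 and -0.13, and those for 40 against 30 °C between 0.26 and 0.54, all inside the dotted lines.

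Severe heat gave a smaller difference from the control. At 40 against 20 °C, 0 of the 5 AGPL1 transcripts tested were DETs, although 12.1% of the 46250 transcripts tested were. At an FDR under 0.05 alone, again 0 of the 5 passed, while 7.69% of all transcripts tested fell. The unadjusted edgeR p-value was under 0.05 for 0 of the 5. DESeq2 gave 0 DETs and 0 transcripts with an FDR under 0.05 among the 4 for which it returned a p-value. Over all 46250 transcripts tested, DESeq2 gave 3554 higher and 2432 lower DETs, and 4053 fell at that FDR. In FPKM, 3 of the 5 (TraesCS1A02G419600.1, TraesCS1B02G449700.1 and TraesCS1D02G427400.1) were lower in every plant at 40 °C than in every plant at 20 °C, as were 26.0% of all transcripts tested, and with counts scaled by TMM factors the groups of all 3 overlapped.

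TraesCS1D02G427400.1 had 452, 506 and 642 FPKM at 40 °C, against 881, 653 and 692 FPKM at 20 °C, and its log2 fold change was -0.31 (approximate SE 0.25, edgeR FDR = 0.414). The log2 fold change was -0.32 (edgeR FDR = 0.398) for TraesCS1A02G419600.1, -0.37 (edgeR FDR = 0.334) for TraesCS1B02G449700.1 and -0.13 (edgeR FDR = 0.747) for TraesCS1B02G449700.2. The summed triad had a log2 fold change of -0.28 (approximate SE 0.26, edgeR FDR = 0.477). It was -0.45 (edgeR FDR = 0.139) when counts were scaled to the library total instead of by TMM factors, a change of scaling that moved the median log2 fold change of all transcripts tested to -0.14 and the DETs to 2959 higher and 3091 lower, against 3485 higher and 2098 lower with TMM factors.

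Replicate 3 at 40 °C stood apart from the other plants of its group. Its 100 most abundant transcripts took 38.6% of the counts, against 30.3 and 30.2% in the other two, and it had 38710 transcripts above 1 FPKM, against 41286 and 41327. AGPL1 took 0.327% of the counts in this library and 0.228 and 0.257% in the other 2 at 40 °C. Without it, the log2 fold change of the summed triad at 40 against 20 °C was -0.56 (edgeR FDR = 0.0886), and TraesCS1B02G449700.1 fell by 0.67 on the log2 scale (edgeR FDR = 0.0447). Other plants moved the value the other way: the log2 fold change of the summed triad was -0.16 (edgeR FDR = 0.741) without replicate 1 at 40 °C and -0.12 (edgeR FDR = 0.811) without replicate 1 at 20 °C. With the share of the 100 most abundant transcripts as a covariate, the log2 fold change of the summed triad was 0.22 (edgeR FDR = 0.487), so that its direction at 40 °C depended on this term.

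**Figure D3:**
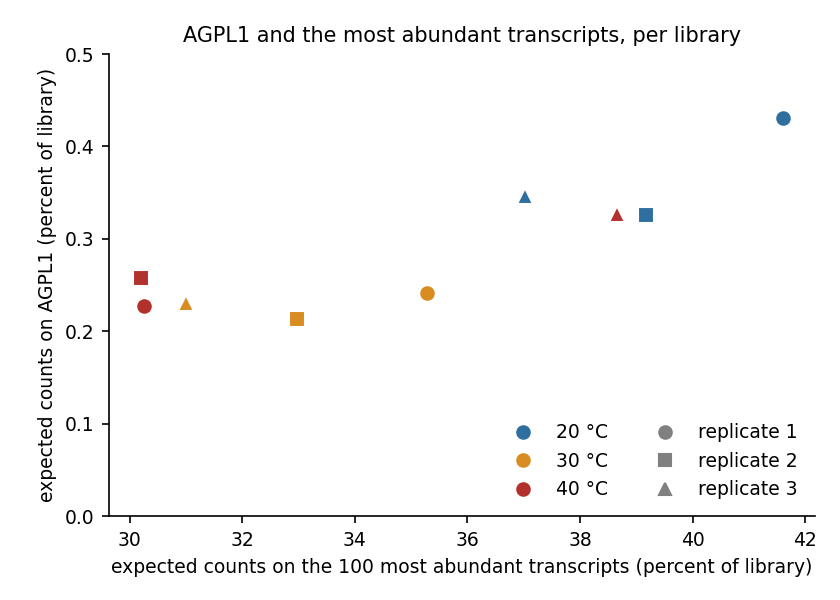
Share of all expected counts on the 6 AGPL1 transcripts against the share on the 100 most abundant transcripts, both in percent of the library, for the 9 libraries. Colour gives the temperature and the marker the replicate number. The 3 libraries at 20 °C and replicate 3 at 40 °C lie to the right, at 37.0% or more, with AGPL1 shares of 0.326% or more, and the other 5 lie to the left with AGPL1 shares of 0.257% or less.

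Between the 2 heat treatments, the values were higher at 40 °C but no AGPL1 transcript passed. Of the 4 transcripts tested at 40 against 30 °C, 0 were DETs, where 3.56% of the 44638 transcripts tested were. At an FDR under 0.05 alone, 0 of the 4 rose, against 4.20% of all transcripts tested. In FPKM, 0 of the 4 were higher in every plant at 40 °C than in every plant at 30 °C, which held for 9.92% of all transcripts tested. The log2 fold changes lay between 0.26 (edgeR FDR = 0.567, TraesCS1B02G449700.1) and 0.54 (edgeR FDR = 0.224, TraesCS1B02G449700.2), and that of the summed triad was 0.41 (approximate SE 0.22, edgeR FDR = 0.359). Without replicate 3 at 40 °C the summed triad was at 0.15 (edgeR FDR = 0.626). The unadjusted edgeR p-value was under 0.05 for 1 of the 4, TraesCS1B02G449700.2. DESeq2 gave 0 DETs and 0 transcripts with an FDR under 0.05 among the 4. Over all 44638 transcripts tested, DESeq2 gave 1622 higher and 439 lower DETs, and 2503 rose at that FDR. The comparisons share their plants, so that the 3 sets of values are not independent.

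Summed over transcripts, the 1A copy was the least abundant in every plant. Within a library, the 1D copy had 1.66 times the FPKM of the 1A copy as a geometric mean over 9 plants, with a range of 1.50 to 1.79 (higher in 9 of 9 plants, exact sign-flip permutation p = 0.00391, adjusted p = 0.00586 over 3 pairs). The 1B copy had 1.74 times the FPKM of the 1A copy, with a range of 1.62 to 1.94 (higher in 9 of 9 plants, the same exact p and adjusted p). The value 0.00391 is the smallest p that 9 plants can give. The 1D and 1B copies were close by FPKM, with a 1D to 1B ratio of 0.953 (1D higher in 2 of 9 plants, both at 20 °C, exact permutation p = 0.0234, adjusted p = 0.0234). By expected counts, which are not divided by length, this ratio was 0.831 (1D higher in 0 of 9 plants, exact permutation p = 0.00391, adjusted p = 0.00391). These orders compare sums over transcripts, and by the most abundant transcript of each copy the 1D transcript had 1.70 times the FPKM of the 1B transcript, because the 1B copy is divided between 2 abundant transcripts. In the same way the 1B transcript had 0.977 times the FPKM of the 1A transcript (1B higher in 3 of 9 plants, exact permutation p = 0.496).

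Each copy's share of the triad does not depend on how a library was scaled. The 1D share was 39.4, 38.4 and 38.3% in the 3 plants at 20 °C. It was 36.5, 36.1 and 37.1% in the 3 plants at 30 °C. It was 38.2, 37.8 and 37.8% in the 3 plants at 40 °C. All 3 groups were separate, in the order 20, 40 and 30 °C from high to low, although the means differed by only 2.17 percentage points at most.

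The exact permutation test for any difference among the temperatures, again chosen after the values had been seen, gave p = 0.00357 for the 1D share, which is the smallest it can give (adjusted p = 0.0179 over 5 tests). It remained between 0.00357 and 0.0107 when each plant was left out in turn. Each pair of temperatures gave the smallest possible exact p of 0.1. A trend in 1 direction with temperature was not found for the 1D share (exact permutation p = 0.388, adjusted p = 0.517). Ratios between copies come from the same values as the shares. The log2 ratio of 1D to 1B averaged -0.13 ± 0.02 at 30 °C and 0.00 ± 0.06 at 20 °C (SD, n = 3 each), with no overlap between the groups (exact permutation p = 0.1). That of 1D to 1A averaged 0.63 ± 0.07 at 30 °C and 0.78 ± 0.06 at 20 °C, and the groups overlapped (exact permutation p = 0.2). At 40 against 20 °C both ratios overlapped (exact permutation p = 0.2 for 1D to 1B and 0.9 for 1D to 1A). At 40 against 30 °C only the ratio of 1D to 1A was separate.

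The shares of the other copies overlapped. The 1B share averaged 38.8 ± 1.03% at 20 °C, 39.9 ± 0.54% at 30 °C and 40.1 ± 0.94% at 40 °C (SD, n = 3 each). The 1A share averaged 22.5 ± 0.83% at 20 °C, 23.6 ± 0.85% at 30 °C and 21.98 ± 0.76% at 40 °C (SD, n = 3 each). The exact permutation test for any difference gave p = 0.229 for the 1B share and p = 0.114 for the 1A share, with adjusted p of 0.229 and 0.143. The exact trend test gave p = 0.123 for 1B and p = 0.831 for 1A, with adjusted p of 0.490 and 0.831. The 3 shares add up to the whole, so that they are not independent of each other.

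**Figure D4:**
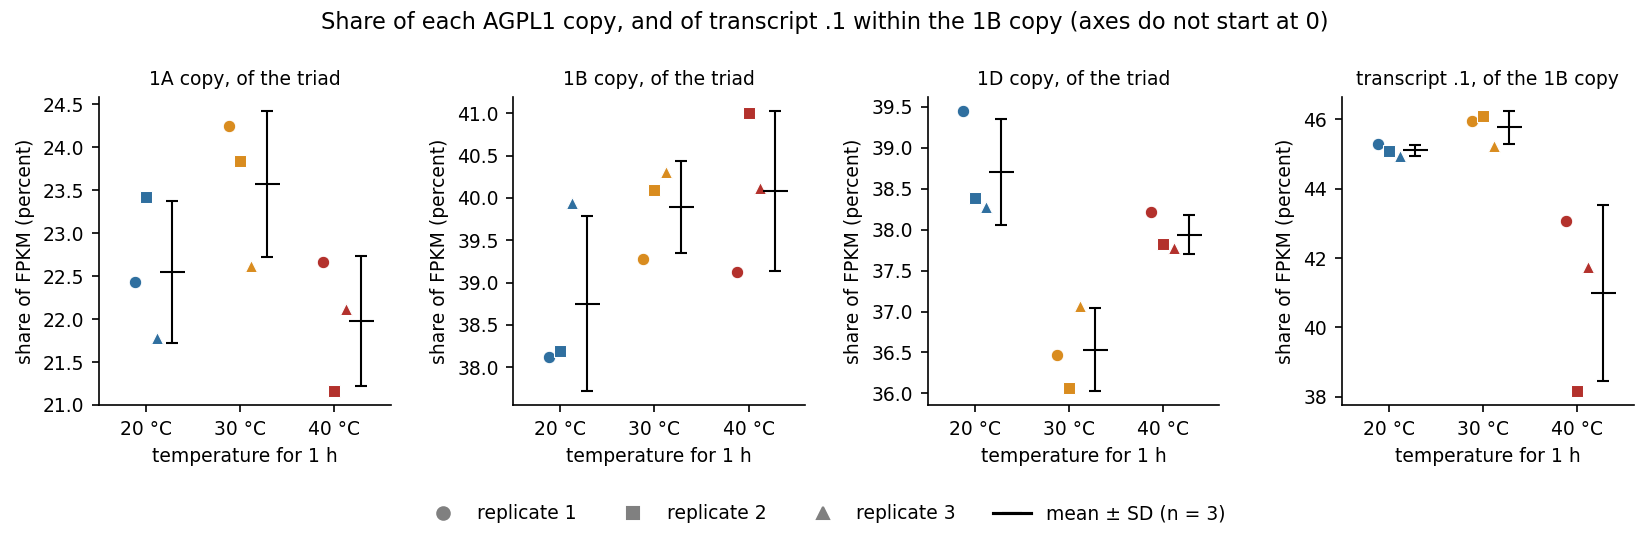
Share of each copy in the summed FPKM of the triad, and share of transcript TraesCS1B02G449700.1 in the FPKM of the 1B copy, in percent by temperature. Points are plants, markers give the replicate number, and the bar beside each group is the mean ± SD of 3 plants (the axes do not start at 0). The 1D share separates all 3 temperatures, and the share of the 1B transcript is between 38.2 and 43.1% at 40 °C and 45.0% or more in the other 6 plants.

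The 1B copy was the only one of the 3 with a pair of abundant transcripts, and their balance differed at 40 °C. TraesCS1B02G449700.1 made up 45.3, 45.1 and 45.0% of the copy's FPKM in the 3 plants at 20 °C. It made up 46.0, 46.1 and 45.2% in the 3 plants at 30 °C. It made up 43.1, 38.2 and 41.7% in the 3 plants at 40 °C, all below every plant at the other temperatures. How often the transcripts of other genes separated in this way was not computed. The groups at 20 and 30 °C overlapped.

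The difference in this share was -4.11 percentage points between 40 and 20 °C and -4.78 percentage points between 40 and 30 °C, and both reached the smallest possible exact permutation p of 0.1. The exact permutation test for any difference among the 3 temperatures, chosen after the data had been seen, gave p = 0.00714 (adjusted p = 0.0179 over 5 tests), and between 0.00714 and 0.0464 when each plant was left out. Without replicate 3 at 40 °C it was 0.00714. The remainder was TraesCS1B02G449700.2, which had 264, 340 and 398 FPKM at 40 °C, against 469, 357 and 397 FPKM at 20 °C. Their balance rests on RSEM's division of shared fragments, and the number of fragments that fit only 1 of them was not measured here.

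The other 2 transcripts were at the edge of detection. TraesCS1D02G427400.2, of 1769 bases, had 6.19 FPKM in replicate 1 at 20 °C, a value from 162 expected counts, was listed at 0 in the other two controls, and had 0.70 FPKM or less in every heated plant. Its log2 fold changes of -3.16 at 30 °C (edgeR FDR = 0.379) and -2.03 at 40 °C (edgeR FDR = 0.471) rest on that 1 library. TraesCS1A02G419600.2, of 1863 bases, had 1.05, 0.22 and 0.22 FPKM at 20 °C, was listed at 0 in the 3 plants at 30 °C, and had 0.54 FPKM in 1 plant at 40 °C and 0 in the other two. It did not pass the filter on FPKM in any comparison. With no filter its edgeR FDR was between 0.110 and 0.634 over the 3 comparisons.

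Of 40704 other genes with a mean FPKM above 1, the gene most like the triad by Pearson correlation of log2(FPKM + 1) over the 9 plants was TraesCS3D02G538600, with r = 0.981. It averaged 12.1 ± 2.01 FPKM at 20 °C, 5.66 ± 0.63 FPKM at 30 °C and 7.64 ± 2.37 FPKM at 40 °C (SD, n = 3 each). The next was TraesCS5A02G538100, with r = 0.975 and means of 7.19 ± 1.00 FPKM at 20 °C, 4.91 ± 0.36 FPKM at 30 °C and 5.34 ± 0.68 FPKM at 40 °C. By Spearman correlation both ranked 113, with rho = 0.900. In all, 142 genes (0.349%) had r above 0.9. These are descriptions over 9 libraries that share their depth and composition across genes.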

How the data were processed

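Per the labels, the samples were grouped by temperature and replicate number, and the paper calls the plants independent. The authors trimmed 150 bp paired reads with Trimmomatic, aligned them to IWGSC v1.0, quantified transcripts with RSEM and tested with edgeR 3.24.3. The deposited tables hold, per transcript, the expected count (an estimate of fragments, not normalized), TPM, FPKM and the percent of the gene's abundance in each isoform. Transcripts were assigned to genes by removing the final number of the identifier, and values of the members were summed over transcripts.

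Expected counts were rounded, a transcript was kept when its FPKM averaged more than 1 in at least 1 of the 2 groups, and TMM factors and edgeR's quasi-likelihood test were applied (edgeR 4.0.16, limma 3.58.1, R 4.3.3) to the 6 samples compared. A DET needed an FDR (Benjamini-Hochberg) under 0.05 together with more than a 2-fold change. The approximate SE is the absolute log2 fold change divided by the square root of F, so it restates the test. Exact permutation tests over samples, two-sided, were run in Python 3.11.15 with numpy 2.4.6 and pandas 2.3.3. The likeness of other genes was the Pearson correlation of log2(FPKM + 1), and the 2 highest were named. The fits were tested on simulated data with planted changes larger than those of the abundant AGPL1 transcripts. That test does not show how the fits treat changes of their size. Replicates differed by 7.33 to 22.3 times the counting variance over 9 pairs, so none was a repeated library.

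The members, lists and tests were chosen with earlier results of these data known. Alternatives were DESeq2 1.42.0, other scalings and filters, a replicate block, 1 model over 9 samples, limma on log2 FPKM, sums over genes and leaving out each plant. The covariate, the summed triad, the share within the 1B copy and the test for any difference among temperatures were added after seeing the data. Planned lists of starch pathway genes and cell type markers were not analysed, because no names were matched to the identifiers, and the protein data were not used here. The extraction text in the labels names a tissue other than grain, and the label of the tissue was followed.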

Additional observations from a re-analysis of the deposited data

How the results depend on the processing

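The count of 0 DETs among the AGPL1 transcripts held in all 3 comparisons under each alternative with the 2-fold limit, and became 2 at 30 against 20 °C without that limit. At 30 against 20 °C the count with an FDR under 0.05 was 2, and was 4 with DESeq2, with library size in place of TMM and with a mean FPKM above 5. Of all 45956 transcripts tested, 1049 fell at this FDR in the main fit, 1977 with DESeq2 and 917 with library size. With a mean FPKM above 5, 1362 of 18635 fell. With counts summed over genes, 3 of 3 copies passed, where 2333 of the 43314 genes tested fell at this FDR. The count of AGPL1 transcripts was 0 with no filter, with 1 model over all 9 samples and with the covariate. In these fits 412 of 96342, 978 of 45956 and 18 of 45956 transcripts fell at this FDR. The AGPL1 count was 0 to 4 when a plant was left out, where 196 to 2146 of all transcripts tested fell. At 40 against 20 °C the AGPL1 count was 0 to 1 when a plant was left out. There 1869 to 3779 of all transcripts tested fell at this FDR, against 3557 with all plants.

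The summed triad at 30 against 20 °C passed an FDR of 0.05 with DESeq2 (log2 fold change -0.72), library size (-0.69), a mean FPKM above 5 (-0.79) and limma on log2(FPKM + 1) (-0.69), and also with the replicate block. It lay between -0.80 and -0.55 when a plant was left out, and passed only without replicate 1 at 30 °C (FDR = 0.0425). At 40 against 20 °C it lay between -0.56 and -0.12, and at 40 against 30 °C between 0.15 and 0.55, when a plant was left out. With the covariate it was 0.22 at 40 against 20 °C, and the sign also turned at 40 °C for TraesCS1A02G419600.1 (0.21), TraesCS1B02G449700.1 (0.14), TraesCS1B02G449700.2 (0.34), TraesCS1D02G427400.1 (0.20) and TraesCS1D02G427400.2 (1.47), and at 30 °C for the last (2.59). When a plant was left out, TraesCS1B02G449700.2 lay between -0.39 and 0.029 at 40 against 20 °C, and TraesCS1B02G449700.1 between -0.016 and 0.40 at 40 against 30 °C.

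Plants with the same replicate number had low correlations of their deviations. These were 0.11, 0.05 and 0.01 at 30 and 20 °C, where plants of different numbers had -0.09 to 0.05. In the other comparisons they lay between -0.10 and 0.06, and those of different numbers between -0.14 and 0.15. The summed triad FPKM was highest in replicate 1 and lowest in replicate 2 at 20 and at 30 °C, but not at 40 °C. With the replicate block, 4 AGPL1 transcripts had an FDR under 0.05 at 30 against 20 °C, where 1254 of all 45956 transcripts tested fell. With the block the summed triad was at -0.71 in that comparison (edgeR FDR = 0.0269), and TraesCS1D02G427400.2 was at 1.09 at 40 against 20 °C. The trend of the 1B share with temperature reached an exact permutation p of 0.0214 when only the most abundant transcript of each copy was used (a difference of 2.505 percentage points between 40 and 20 °C), and the difference lay between 0.87 and 1.93 when a plant was left out, with an exact permutation p of 0.0286 without replicate 1 at 40 °C. By the most abundant transcripts, the log2 ratio of 1D to 1B was 0.77 and that of 1B to 1A was -0.033.

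Groups of 3 plants, a call near its threshold and 1 library at 40 °C that stood apart limit these comparisons. The causes of these shifts were not tested.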
